A study of Mus musculus with 4 samples.

Results

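NFIC (nuclear factor I/C) was immunoprecipitated from the chromatin of mouse pancreas, and the bound DNA was sequenced. The core promoter peaks described here are those that the deposited annotation placed in the promoter-TSS class of HOMER, at a protein-coding gene, with the peak centre between -150 and 100 bp of the transcription start site (TSS), negative being upstream. Position, class and gene type chose the peaks, and neither their score nor their sequence did. There were 1909 such peaks among 15824 peaks in all (12.1%, 95% Wilson confidence interval 11.6 to 12.6), and among 3073 peaks of the promoter-TSS class at protein-coding genes (62.1%, 60.4 to 63.8). The samples were 3 libraries precipitated with an NFIC antibody (Bethyl A303-123A) and 1 library of input DNA, all from wild-type mice whose strain is labelled Mixed. Their age is 8 to 12 weeks in the series' design text, and the text of the paper gives a narrower range within it. The deposited table is a single merged list with no value for any one library. Replicate error is therefore lacking, and the depth behind each peak is unknown. The tissue was whole pancreas, in which acinar cells prevail, and a peak cannot be assigned to one of its cell types. Intervals given with shares cover counting error only, because peaks from 1 merged list do not stand for replicates. Differences between 2 sets of peaks are given in percentage points with Newcombe intervals at a two-sided error of 0.001, wide because many differences were taken. A difference whose interval spans 0 is called not separated.

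NFI proteins bind DNA as dimers at a palindromic site made of a pair of TGGC arms in opposite orientation, and one TGGC alone is bound more weakly. Core promoters hold the start site of RNA polymerase II. In mammals many of them, above all those of broadly expressed genes, lie in CpG islands and carry sites for SP, ETS, NRF1 or NFY proteins, whereas a TATA box is more common at promoters of tissue-restricted genes.

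The sequences below show what these peaks look like. All were read 5′ to 3′ in the direction of the gene from RefSeq sequence of GRCm38, the assembly behind mm10. For a gene on the minus strand, this is the reverse complement of the reference. In the first and the last set, each is the stretch of a peak that overlaps no annotated exon. In the first set, chosen for high scores and for known roles of the genes, capitals mark the NFI full site TGGCNNNNNGCCA, in which at most 1 of the 8 fixed bases differs.
Tsc22d4 (chr5:137745770-137745942, plus strand): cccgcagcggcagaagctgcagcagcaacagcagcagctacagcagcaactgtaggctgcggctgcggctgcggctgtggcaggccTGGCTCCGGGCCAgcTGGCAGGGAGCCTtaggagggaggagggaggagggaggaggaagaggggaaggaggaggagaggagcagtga
Alas1 (chr9:106247955-106248057, minus strand): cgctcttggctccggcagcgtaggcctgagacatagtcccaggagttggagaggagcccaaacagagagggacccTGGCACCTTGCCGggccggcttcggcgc
Aldh3b1 (chr19:3929779-3929889, minus strand): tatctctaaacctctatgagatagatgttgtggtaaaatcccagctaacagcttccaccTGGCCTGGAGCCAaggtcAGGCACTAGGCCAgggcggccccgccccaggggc
Dok4 (chr8:94876316-94876488, minus strand): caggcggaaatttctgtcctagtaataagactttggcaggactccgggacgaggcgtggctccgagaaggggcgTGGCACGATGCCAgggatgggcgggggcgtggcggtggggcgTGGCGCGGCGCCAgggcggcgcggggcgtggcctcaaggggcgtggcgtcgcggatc
Eef2 (chr10:81176449-81176621, plus strand): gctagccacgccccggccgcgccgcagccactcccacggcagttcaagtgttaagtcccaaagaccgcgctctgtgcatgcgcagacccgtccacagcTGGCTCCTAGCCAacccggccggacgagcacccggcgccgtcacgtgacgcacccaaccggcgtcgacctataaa
Krt7 (chr15:101412251-101412402, plus strand): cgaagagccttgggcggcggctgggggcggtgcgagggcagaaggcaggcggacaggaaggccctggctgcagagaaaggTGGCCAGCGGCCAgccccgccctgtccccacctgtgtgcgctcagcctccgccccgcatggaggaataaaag

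Of these, Tsc22d4 encodes a leucine zipper protein of the TSC22 family, Alas1 the first enzyme of heme synthesis, Aldh3b1 an aldehyde dehydrogenase, Dok4 a docking protein of tyrosine kinase signaling, Eef2 the elongation factor that moves the ribosome along the mRNA, and Krt7 a keratin of duct cells. Dok4 held 2 full sites without a mismatch, and the Alas1 site had 1 mismatch. In 5 further peaks an exact site (no mismatch) is given with 8 bases on each side, and the coordinates are those of the site in capitals. The site at Itm2b lay outside annotated exons and the other 4 within one. These serve to compare the spacer, which differed from site to site.
Itm2b (chr14:73385359-73385371, minus strand): ggagggtcTGGCGTGAAGCCAggccccgc
Cldn12 (chr5:5514958-5514970, minus strand): tcaggaatTGGCCCGCGGCCAgcggcccg
Polr2i (chr7:30232008-30232020, plus strand): atgtgcacTGGCCTTGGGCCAagaagaga
Setd4 (chr16:93603700-93603712, minus strand): cggcgctgTGGCGTGTGGCCAtcactgag
Zkscan17 (chr11:59506592-59506604, minus strand): cccaattcTGGCATTTCGCCAgcgccgcc

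Itm2b encodes a small membrane protein, Cldn12 a claudin, Polr2i a subunit of RNA polymerase II, Setd4 a SET domain methyltransferase and Zkscan17 a zinc finger protein. The last set holds 4 peaks without an NFI full site, chosen to show the motifs of core promoters. Here capitals mark any match to the SP, ETS, NRF1, NFY, CRE, YY1 or THAP11/ZNF143 motif, whose letters are given further on.
Slc48a1 (chr15:97784233-97784364, plus strand): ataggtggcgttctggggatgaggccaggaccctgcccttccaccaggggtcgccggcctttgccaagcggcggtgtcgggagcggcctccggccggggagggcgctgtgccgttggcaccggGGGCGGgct
Psmd6 (chr14:14120952-14121124, minus strand): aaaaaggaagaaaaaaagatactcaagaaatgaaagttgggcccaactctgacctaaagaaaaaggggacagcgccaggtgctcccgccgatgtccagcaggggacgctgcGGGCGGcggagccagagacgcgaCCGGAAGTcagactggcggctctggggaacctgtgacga
Sf3b2 (chr19:5295458-5295608, minus strand): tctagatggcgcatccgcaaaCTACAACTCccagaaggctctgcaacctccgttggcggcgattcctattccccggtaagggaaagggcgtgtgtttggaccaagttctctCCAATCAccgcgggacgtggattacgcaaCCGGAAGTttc
Mrpl39 (chr16:84735278-84735450, minus strand): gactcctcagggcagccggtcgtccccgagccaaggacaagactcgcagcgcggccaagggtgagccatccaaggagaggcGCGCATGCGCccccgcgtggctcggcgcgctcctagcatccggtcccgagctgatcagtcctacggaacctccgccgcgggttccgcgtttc

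Slc48a1 encodes a heme transporter, Psmd6 a subunit of the proteasome lid, Sf3b2 a splicing factor and Mrpl39 a protein of the mitochondrial ribosome. The stretch at Psmd6 held an SP and an ETS match. At Sf3b2 it held a THAP11/ZNF143, an NFY and an ETS match.

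The position of the peaks at these promoters is given first, as a description, because the distance to the TSS chose them. Within the window, which reaches further upstream than downstream, peak centres had quartiles of -84, -32 and 20 bp, and 1285 of the 1909 (67.3%) lay at or upstream of the TSS. Counted over all peaks of the promoter-TSS class at protein-coding genes, the density was 226 peaks in the 50 bp from -200, 343 from -150, 454 from -100, 474 from -50, 370 from the TSS and 264 from 50 bp. The density thus fell off on both sides of the 100 bp before the TSS. It was 33 in the 50 bp from 100, and 143 peaks of the class lay past 100 bp in all. By default the promoter-TSS class of HOMER reaches from -1000 to 100 bp. Counts of the class past 100 bp therefore do not show how peaks are spread there. At the edges of the window, Pkm (pyruvate kinase) lay just inside at -150 bp with a score of 11.8 and Tor1aip1 (a protein of the inner nuclear membrane) just outside at -151 bp with a score of 46.6. At the other edge, Ppwd1 lay inside at 100 bp with a score of 7.97 and St13 outside at 101 bp with a score of 8.76. For 1903 peaks the transcript named in the deposited annotation was in the RefSeq copy, and for 93.3% of these the recomputed distance was equal to the deposited one. When the nearest TSS was recomputed, 1879 peaks (98.4%) were still inside the window. The X chromosome held 18 core promoter peaks (0.943%) and 171 of all peaks (1.08%).

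**Figure D1:**
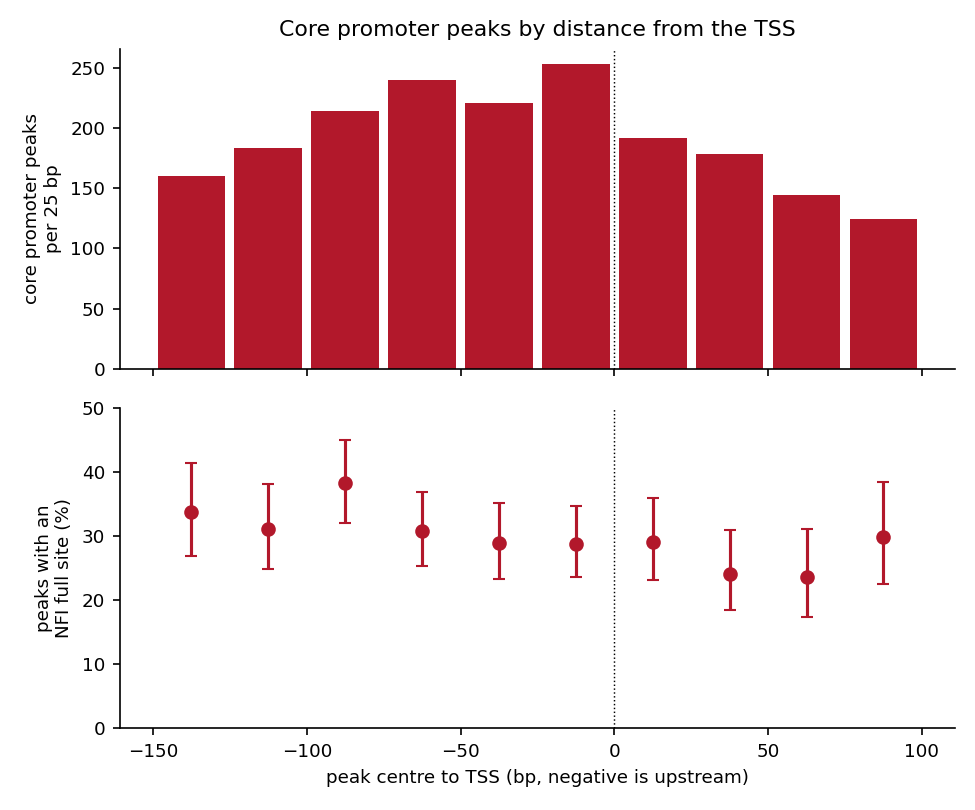
Top, number of core promoter peaks per 25 bp against the distance of the peak centre from the TSS. Bottom, share of these peaks with an NFI full site, with 95% Wilson intervals. Counts are highest in the 25 bp before the TSS (253 peaks), and the share with a site lies between 23.6% and 38.3%.

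Core promoter peaks were of lower score than upstream promoter peaks and than peaks outside promoters. The peak score is the authors' score of each peak, on a scale not given in the sources used here, and serves only to rank peaks within the list. Its quartiles were 4.78, 6.17 and 8.17 in core promoter peaks, with a lowest value of 3.39 and a highest of 47.6. In the 1021 peaks of protein-coding genes in the same class but with a distance under -150 bp, the quartiles were 5.18, 6.97 and 9.76. In the peaks outside the promoter-TSS class they were 4.98, 6.57 and 9.16. The distributions overlap widely, but 45.9% of core promoter peaks (43.7 to 48.2) were in the upper 2 score quartiles of the list, against 56.2% of upstream promoter peaks and 52.3% of peaks outside promoters. The differences were -10.3 points (-16.5 to -3.90) and -6.36 points (-10.4 to -2.32). The focus ratio, a fraction that describes how far the tags of a peak sit at its centre, had a median of 0.665 in core promoter peaks, 0.667 in upstream promoter peaks and 0.690 outside promoters. Within the core window, scores were higher upstream. The median was 6.57 in the 557 peaks from -150 to -76 bp, 6.17 in the 714 from -75 to -1 bp, 5.98 in the 375 from 0 to 50 bp and 5.98 in the 263 from 51 to 100 bp. The share in the upper 2 quartiles went from 52.8% (48.6 to 56.9) in the first of these zones to 40.7% (34.9 to 46.7) in the last.

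The 10 core promoter peaks with the highest score all held an NFI full site. Tsc22d4 (chr5:137745770-137745942) was highest, with a score of 47.6 at -113 bp. Alas1 (chr9:106247885-106248057) followed with 34.5 at -17 bp, Aldh3b1 (chr19:3929717-3929889) with 33.5 at -87 bp, Dok4 (chr8:94876316-94876488) with 32.5 at -90 bp and Itm2b (chr14:73385317-73385489) with 27.7 at -114 bp. Of these 5, only Alas1 had no exact site. The next 5 were Dhrs13, a dehydrogenase (26.5, -69 bp), Agap1, a GTPase-activating protein of ARF proteins (23.3, -15 bp), Cldn12 (23.3, 63 bp), Crebl2, a basic leucine zipper protein (23.1, -73 bp), and Rapgef1, an exchange factor of RAP1 (22.7, -40 bp). Cldn12 was the only one of the 10 whose centre lay downstream of the TSS. In the 50 peaks of highest score, down to 17.3, 42 held a full site and 15 an exact one. The 8 without a full site, named here after their values were seen, were Slc48a1 (21.5), Sardh, a mitochondrial dehydrogenase of sarcosine (20.9), Mthfd2l, a folate enzyme of mitochondria (20.5), Aacs, which makes acetoacetyl-CoA (18.9), C2cd3, a centriole protein (18.3), Cnot8, a deadenylase subunit (17.9), Tusc1 (17.5) and Fech, the last enzyme of heme synthesis (17.3). Sardh, Aacs and C2cd3 also held none of the 7 promoter motifs searched.

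NFI full sites were counted to ask how often the factor's own motif was present. Windows of 200 bp centred on the peaks were searched, and all core promoters of the RefSeq annotation (21000 protein-coding genes, 1 TSS each, windows centred at -32 bp) were searched in the same way. The latter include the promoters of the genes described here. The full site was present in 574 core promoter peaks (30.1%, 28.1 to 32.2), in 43.8% of upstream promoter peaks (40.8 to 46.8), in 55.9% of peaks outside promoters (55.0 to 56.8) and in 11.3% of all core promoters (10.9 to 11.7). The share in core promoter peaks was thus 18.8 points above that of all core promoters (15.3 to 22.4), but below those of upstream promoter peaks (difference -13.7, -19.8 to -7.56) and of peaks outside promoters (difference -25.8, -29.5 to -22.0). With no mismatch, the site was present in 64 core promoter peaks (3.35%), 5.88% of upstream promoter peaks, 15.7% of peaks outside promoters and 0.452% of all core promoters. For the exact site, core and upstream promoter peaks were not separated (difference -2.52, -5.65 to 0.0550). A single arm, TTGGCA, which can be part of a full site, was present in 16.7% of core promoter peaks, 24.6% of upstream promoter peaks, 37.3% of peaks outside promoters and 7.62% of all core promoters. Its share differed from each of the 3 other sets, but with only peaks of the upper 2 score quartiles it was not separated from upstream promoter peaks (difference -6.79, -14.6 to 0.752).

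The spacer of the site was examined by searching the pair of TGGC arms without mismatch at spacers of 0 to 10 bp. A spacer of 5 bp was found in 64 core promoter peaks (3.35%, 2.63 to 4.26), and the other 10 spacers in 11 to 36 peaks each. In all core promoters the spacer of 5 bp did not stand out, with 0.452% (0.370 to 0.553) against 1.0% at 1 bp and 0.738% at 4 bp. Among the core promoter peaks, 65 exact sites were found in the 64 peaks with any. Their median distance from the peak centre was 23 bp, and 43.8% of the peaks had the site within 20 bp of it (32.3 to 55.9), against 40% of upstream promoter peaks (28.6 to 52.6) and 45.3% of peaks outside promoters (43.1 to 47.5). Relative to the TSS, the exact sites had quartiles of -94, -66 and -30 bp. Of the 65 sites, 35 lay between -100 and -25 bp, 15 further upstream and 12 downstream of the TSS. The site at Krt7 sat at the peak centre, 66 bp upstream of the TSS, and that at Eef2 lay 18 bp from the centre.

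**Figure D2:**
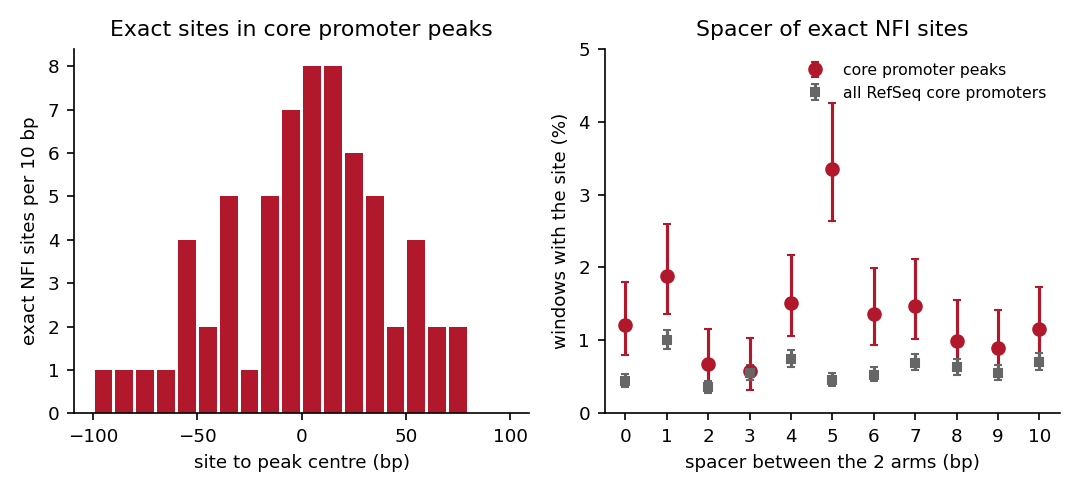
Left, exact NFI sites in core promoter peaks per 10 bp of distance from the peak centre, positive towards higher coordinates. Right, share of 200-bp windows with the 2 arms at each spacer, with 95% Wilson intervals, in core promoter peaks (circles) and all RefSeq core promoters (squares). The 5-bp spacer reached 3.35% in core promoter peaks and 0.452% in all core promoters.

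Score and NFI site moved together in core promoter peaks. The 574 peaks with a full site had a median score of 7.97 (quartiles 5.78 and 11.8), and the 1335 without had a median of 5.78 (4.68 and 7.37). Of the former, 67.9% were in the upper 2 score quartiles (64.0 to 71.6), and of the latter 36.5% (33.9 to 39.1), a difference of 31.5 points (23.4 to 38.8). The order followed the number of mismatches to the site. The median score was 11.2 in the 64 peaks with an exact site, 7.57 in the 510 whose best match had 1 mismatch, 5.78 in the 1067 with 2 and 5.38 in the 268 with 3 or more. It also followed the number of full sites, with medians of 7.57 in 498 peaks with 1 site, 8.17 in 65 peaks with 2 and 14.9 in 11 peaks with 3. Krt7 shows the spread around this order, with an exact site and a score of 4.58. By score quartile of the list, the share with a full site was 58.5% in the highest, then 33.3%, 18.8% and 16.7% in the lowest. The share fell from the highest to the lowest quartile by 41.8 points (31.3 to 51) in core promoter peaks, by 37.7 points (23.2 to 49.9) in upstream promoter peaks and by 20.6 points (16.5 to 24.5) outside promoters. Core promoter peaks of the lowest quartile, at 16.7% (13.7 to 20.3), were still above all core promoters.

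**Figure D3:**
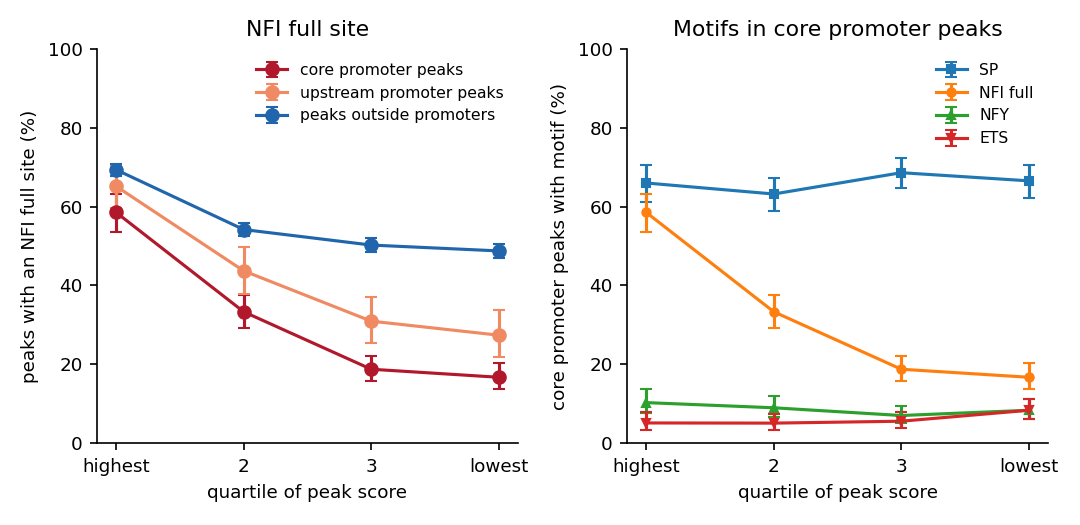
Left, share of peaks with an NFI full site by score quartile of the whole list, in core promoter peaks, upstream promoter peaks and peaks outside promoters. Right, share of core promoter peaks with an SP, NFI full, NFY or ETS motif by score quartile. Bars are 95% Wilson intervals. The NFI share falls from 58.5% to 16.7% in core promoter peaks, and SP matches stay between 63.2% and 68.6%.

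Other motifs were searched as fixed letters on both strands of the same windows. The promoter motifs were SP (GGGCGG), ETS (CCGGAAGT), NRF1 (GCATGCGC), NFY (CCAATCA or CCAATGA), CRE (TGACGTCA), YY1 (AAGATGGCG) and THAP11/ZNF143 (CTACAANTC). The SP motif was present in 66.2% of core promoter peaks (64.0 to 68.2), 47.2% of upstream promoter peaks, 11.3% of peaks outside promoters and 45.6% of all core promoters, and was higher in core promoter peaks than in each of the others. Among CpG-rich windows alone (GC content over 50% and a ratio of observed to expected CpG over 0.6), it was not separated from upstream promoter peaks (72.9% and 66.1%, difference 6.76, -0.729 to 14.6), and among the other windows it was higher (41.0% and 26.7%, difference 14.3, 3.86 to 24.5). The difference of SP from all core promoters was 20.6 points (16.8 to 24.2), and 10.1 points (6.19 to 14.0) in 100-bp motif windows. ETS was present in 6.08% (5.09 to 7.24), 2.25%, 0.422% and 4.90%, with the 4 sets in the same order. It was higher than in upstream promoter peaks by 3.82 points (1.20 to 6.16) and not separated from all core promoters (difference 1.18, -0.464 to 3.29). The difference from upstream promoter peaks was no longer separated among CpG-rich windows (3.71, -0.401 to 6.78), among the other windows (1.22, -2.0 to 5.25) or in the upper 2 score quartiles (3.21, -0.328 to 6.48). NFY was present in 8.54% of core promoter peaks, below the 11% of all core promoters (difference -2.45, -4.47 to -0.00704). This was no longer separated in the upper 2 score quartiles (-1.58, -4.47 to 2.26) or from -100 to 50 bp (-1.74, -4.17 to 1.32). NRF1 (3.61%), CRE (1.89%), YY1 (1.52%) and THAP11/ZNF143 (1.73%) were higher than in peaks outside promoters and not separated from all core promoters. No call on a motif other than NFI says whether its factor was present.

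Motifs known from pancreatic enhancers were not separated from the level of all core promoters. The E-box CAGCTG, a form read by bHLH proteins such as PTF1A and MIST1, was present in 12.6% of core promoter peaks, 23.7% of peaks outside promoters and 11.7% of all core promoters. The motif of GATA factors, GATAAG, was present in 2.88%, 8.91% and 3.85%, FOX (TGTTTAC) in 1.41%, 4.55% and 1.60%, NR5A2 (CAAGGTCA) in 0.786%, 2.29% and 0.705%, and RBPJ (GTGGGAA) in 3.82%, 5.69% and 3.70%. These 5 motifs and AP-1 (TGAGTCA or TGACTCA, 1.89%, 4.0% and 2.70%) were lower than in peaks outside promoters, and none was separated from all core promoters. USF (CACGTG) and HNF1 (TTAATNATT) were separated from neither. Over the 17 motifs other than the NFI full site, 7 were higher and 8 lower than in peaks outside promoters, 2 higher and 1 lower than in upstream promoter peaks, and 2 higher and 2 lower than in all core promoters. An NFI full site and at least 1 of the 7 promoter motifs were both present in 410 core promoter peaks (21.5%). Neither was present in 316 peaks (16.6%, 15.0 to 18.3). None of the 16 motifs outside the NFI family was separated between core promoter peaks with and without a full site. The motif SP was present in 62.5% of the former and 67.7% of the latter (difference -5.17, -13.1 to 2.53).

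**Figure D4:**
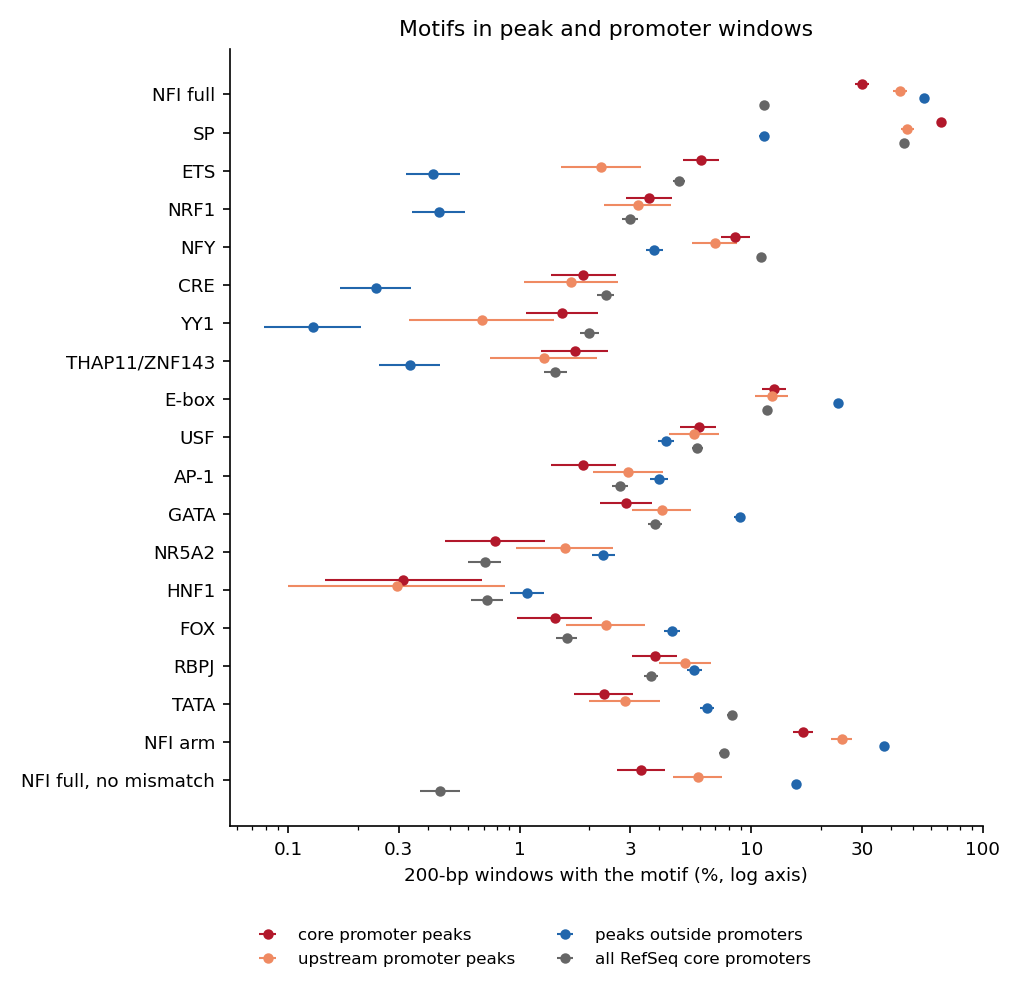
Share of 200-bp windows with each motif (NFI arm is TTGGCA), on a log axis, in core promoter peaks, upstream promoter peaks, peaks outside promoters and all RefSeq core promoters, with 95% Wilson intervals. SP is most frequent in core promoter peaks (66.2%), and the NFI full site is more frequent there (30.1%) than in all core promoters (11.3%).

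The base composition of the windows moved with these motifs. Core promoter peaks had a median GC content of 67.0% and a median ratio of observed to expected CpG of 0.834, against 61.0% and 0.638 in upstream promoter peaks, 52.5% and 0.229 in peaks outside promoters, and 60.0% and 0.658 in all core promoters. By the limits given above, 78.9% of core promoter peaks (77.1 to 80.7) were CpG-rich, against 52.0%, 9.77% and 52.3%. Among CpG-rich windows alone, 27% of 1507 core promoter peaks and 11.3% of 10991 promoters held an NFI full site (difference 15.7, 12.0 to 19.8), as did 34.7% of upstream promoter peaks (difference -7.64, -15.5 to -0.117) and 40.7% of peaks outside promoters (difference -13.7, -19.6 to -7.76). In the other 402 core promoter peaks it was present in 41.5%, and in 11.4% of the other promoters (difference 30.2, 22.3 to 38.4). In both classes of composition the NFI share was above that of all core promoters. The SP share was so in only one. Among CpG-rich windows it was 72.9% in core promoter peaks and 71.1% in all promoters (difference 1.77, -2.39 to 5.65), and among the others 41.0% and 17.6% (difference 23.5, 15.6 to 31.8). The CpG-rich share was 70.9% in core promoter peaks with a full site and 82.4% in those without, and this difference was not tested.

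TATA boxes were less frequent at these genes than at all protein-coding genes, and not separated from those with an upstream promoter peak. With the motif TATAAA taken on the strand of the gene from -40 to -20 bp, 20 of 1891 genes (1.06%, 0.686 to 1.63) had one, against 2.90% of all protein-coding genes (difference -1.84, -2.51 to -0.682) and 1.88% of genes with an upstream promoter peak (difference -0.825, -2.90 to 0.647). On both strands of the whole window the motif was present in 2.31% of core promoter peaks, 2.84% of upstream promoter peaks and 8.23% of all core promoters. Bidirectional promoters, where a second protein-coding gene starts on the other strand within 1000 bp upstream, were found at 190 of 1903 peaks (9.98%, 8.72 to 11.4) and at 8.29% of all genes (difference 1.70, -0.442 to 4.26), which were not separated. Upstream promoter peaks had a lower share, at 22 of 1018 (2.16%, difference 7.82, 4.91 to 10.5), but they were chosen by their distance from the nearest TSS, on which this count also depends. The highest of these peaks, named after their values were seen, were at Ngef and Neu2 (21.7), Setd3 and Ccnk (20.3), Safb and Safb2 (20.1) and Amdhd1 and Ccdc38 (19.1), and all 4 held a full site. Peaks at bidirectional promoters did not separate from the others in the share with a full site (26.3% and 30.6%, difference -4.27, -14.1 to 7.83) or in the share in the upper 2 score quartiles (45.8% and 46.1%).

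The peaks were assigned to 1895 genes, of which 14 had 2 core promoter peaks and none had more. Ogdh, a subunit of the oxoglutarate dehydrogenase complex, had peaks of score 11.2 and 7.97 at a pair of start sites. Sh3tc1 had 13.9 and 6.77, Fam110a 12.0 and 7.97, and Fkbp2, a prolyl isomerase of the ER, 9.56 and 9.16. For 1159 genes the core promoter peak or peaks were the only ones assigned. The other 736 (38.8%, 36.7 to 41.1) had further peaks, a lower share than the 47.9% of genes with an upstream promoter peak (difference -9.08, -15.4 to -2.74). Of the 1451 further peaks, 794 (54.7%) were intronic, 500 (34.5%) intergenic and 56 (3.86%) of the promoter-TSS class. In all, 50 genes had a core and an upstream promoter peak, and 96 had 5 or more peaks. In 1462 genes the highest-scoring peak of the gene was at the core promoter, the 1159 with no other included.

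Gene lists drawn up by name were then counted for core promoter peaks. Of 21000 protein-coding genes in the RefSeq annotation, 1891 (9.00%) had one, and 4 further genes of the list were not matched to it. Lists of broadly expressed machinery lay at or somewhat above this background. Genes of RNA polymerases, general factors and Mediator had a core promoter peak in 19 of 103 (18.4%, 12.1 to 27). Among them were Med31 (score 18.5), Polr2i (14.1), Med22 (11.8) and Med4 (9.36). Splicing and snRNP proteins had 11 of 68 (16.2%, 9.28 to 26.7), with Prpf18 (13.3), Sf3b2 (11.8), Lsm1 (11.6) and Lsm4 (9.36) highest. These were the 2 lists of the 21 whose intervals lay above the background, with no correction for the number of lists. The second counts Lsm1 and Lsm14a by their names, although they are known from mRNA decay and translation control rather than splicing. Its share without them was not computed, so its place above the background may depend on them. With only peaks of the upper 2 score quartiles, the first had 7.77% (3.99 to 14.6), beside 4.15% of all genes, an interval that held the background. That of the second held it from -100 to 50 bp (11.8%, beside 6.14%), from -300 to 200 bp (16.2%, beside 11.6%) and with recomputed distances (16.2%, beside 9.38%). Respiratory chain and ATP synthase genes had 12 of 81 (14.8%), led by Cox5a (12.0), a subunit of cytochrome c oxidase. The shares were 13.3% for histone modifiers (10 of 75), 10.4% for zinc finger proteins (44 of 422), 10.3% for the proteasome (4 of 39) and 9.30% for autophagy (4 of 43), all with intervals that hold 9.00%. From -100 to 50 bp the proteasome had 1 of 39 (2.56%, 0.454 to 13.2) and the respiratory chain 7 of 81 (8.64%, 4.25 to 16.8), beside 6.14% of all genes, which both intervals held. Setd3, the highest of the histone modifiers at 20.3, is known as a methyltransferase of actin. Solute carriers, at 33 of 359 (9.19%), were at the background, with Slc48a1 (21.5), Slc26a6, an exchanger of chloride and bicarbonate (17.3), Slc38a3, a glutamine transporter (16.9), and Slc25a16, a mitochondrial carrier (16.3) highest.

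Lists for protein synthesis and secretion had core promoter peaks in 10.5% to 17% of their genes, each with an interval that held the background. Cytosolic ribosomal proteins had a core promoter peak in 11 of 86 (12.8%, 7.29 to 21.5), with a median score of 4.78, and mitochondrial ribosomal proteins in 9 of 78 (11.5%), with a median of 6.17. The highest cytosolic ones were Rpl37 (7.97), Rps19 (7.77), Rps20 (6.77) and Rpl3 (6.37). None of the 11 and none of the 9 held an NFI full site, which at 3 counts of the total allows shares of up to 27.3% and 33.3%, against 571 of the 1891 genes of the background (30.2%). Both lists had median scores below the median of all peaks (6.57). Core promoter peaks of the lower 2 score quartiles held a full site in 18.8% and 16.7%, shares that both limits allow. Translation factors had 7 of 54 (13%), of which 3 held a full site, and Eef2 stood out at 18.3, against 6.57 for Eef1e1 and Eif2d next in order. Eef1e1 was counted by its name, although it is known as a protein of the aminoacyl-tRNA synthetase complex. Shares of this list without it were not computed in any setting. Aminoacyl-tRNA synthetases had 4 of 38 (10.5%), with Lars2 (7.97) highest. ER chaperones and folding enzymes had 8 of 47 (17%, 8.89 to 30.1), among them Fkbp2 (9.56), the ERAD proteins Derl1 (7.97) and Derl2 (7.57), and Dnajb9, a cochaperone of BiP (7.77). The interval of the ER chaperones lay above the background with only the upper 2 score quartiles (10.6%, 4.63 to 22.6, beside 4.15%), from -100 to 50 bp (14.9%, 7.41 to 27.7, beside 6.14%) and from -300 to 200 bp (23.4%, 13.6 to 37.2, beside 11.6%). That of the translation factors did so in the last 2 of these settings (13%, 6.42 to 24.4, and 22.2%, 13.2 to 34.9), and that of the cytosolic ribosomal proteins from -100 to 50 bp (11.6%, 6.44 to 20.1). ER translocation and COP transport had 7 of 62 (11.3%), with Kdelr3, a receptor that returns ER proteins from the Golgi (13.3), Sec16a (7.97), Sec23a (7.97) and Sec61b (7.57) highest, and none of the 7 held a full site (up to 42.9%).

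The shares of acinar genes with a core promoter peak had intervals that held the background. In the list of 32 genes for digestive enzymes and secretory proteins, 19 (59.4%) were assigned some peak, against 37.2% of all protein-coding genes, and 2 (6.25%, 1.73 to 20.1) had one at the core promoter, an interval that holds the background. These were Pnliprp1, a relative of pancreatic lipase (7.57, at 89 bp), and Cela3b, an elastase (6.37, at -123 bp). From -100 to 50 bp 0 of the 32 had a peak, and from -300 to 200 bp 6 (18.8%, 8.89 to 35.3, beside 11.6%). All 15 acinar transcription factors had a peak and 0 had one at the core promoter, which at 3 counts allows a share of up to 20%. Of 9 acinar markers 8 had a peak and 0 a core promoter peak. Among 6 markers each of other cell types, 5 of duct, 4 of stromal and endothelial, 0 of endocrine and 0 of immune cells had a peak, and only Krt7 of the duct list had one at the core promoter. Olfactory receptors, a family known from the olfactory epithelium, had 0 core promoter peaks in 1107 genes (up to 0.271% at 3 counts, and 0.346% by the Wilson interval) and a peak anywhere in 11. Levels of RNA were not analysed here, so the part of expression in these shares was not tested.

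**Figure D5:**
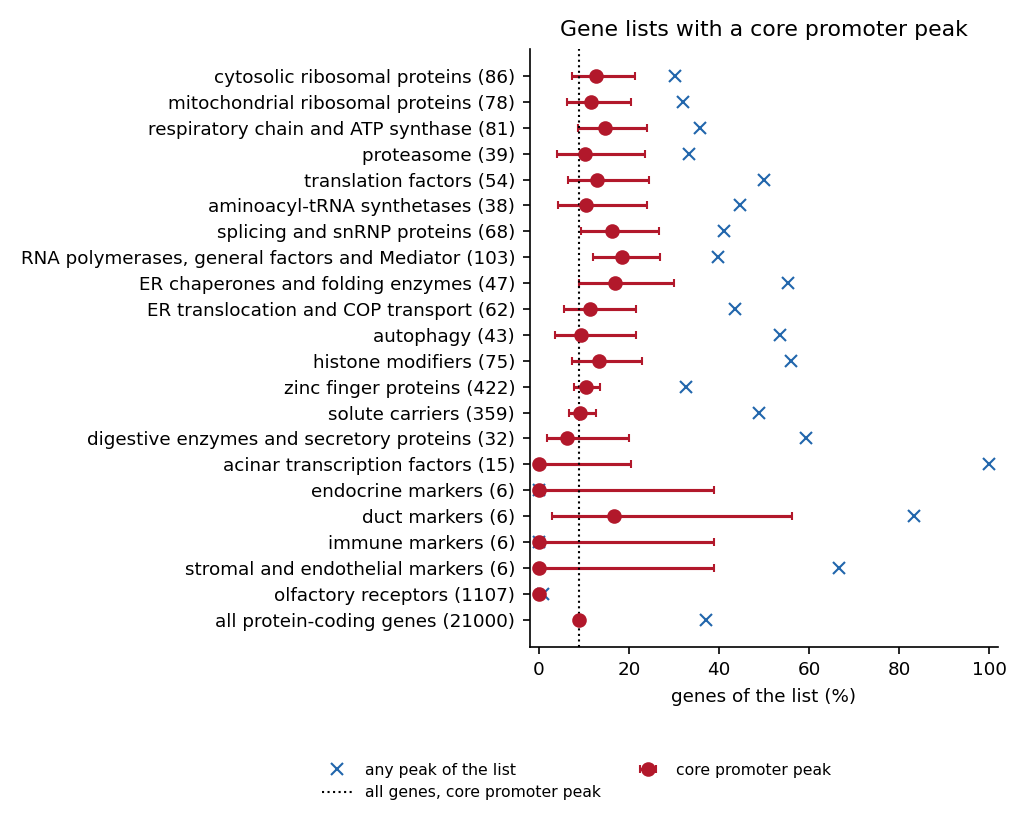
Share of the genes of each list with a core promoter peak (circles, 95% Wilson intervals) and with any peak (crosses), with the number of genes in parentheses. The dotted line is the 9.00% of all protein-coding genes with a core promoter peak. The acinar transcription factors have a peak in 100% of genes and none at the core promoter.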

How the data were processed

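Chromatin of mouse pancreas from 3 NFIC ChIP-Seq libraries and 1 input library is represented by 1 merged peak list. Per the labels, BWA, Picard and MACS2 were used and the build was mm10. The paper's methods name HOMER for merging of replicate peaks and annotation. Versions and thresholds are not given in the sources used here. The peak score (a score of unnamed scale), the focus ratio (a fraction that measures how centred the tags of each peak are) and the distance to the TSS were used as the authors deposited them. Columns with per-sample values numbered 0.

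Shares were counted with 95% Wilson intervals and differences with Newcombe intervals at a two-sided error of 0.001. Where a count was 0, the upper limit given is 3 counts of the total. All peaks were 173 bp wide. Motifs were searched in 200-bp windows of the RefSeq copy of GRCm38, with at most 1 mismatch for the NFI full site and 0 for the others. The 21000 background genes are protein-coding with a curated mRNA. Promoter windows of all genes were centred at -32 bp, the median of the core promoter peaks. Genes named are the 10 peaks of highest score, the 5 highest with an exact site, those at the edges of the window, the 5 highest of genes with 2 core promoter peaks and the 4 highest of each list, besides those said to be chosen later; 1 gene named by this rule is not reported here. Members and lists were chosen with earlier results of these data known. Alternatives varied the score quartiles, the window, the annotation, the mismatches, the motif window and the distance of start sites. Composition classes were added after seeing the data. On simulated windows the search found 100% of planted sites, which had at most 1 mismatch, so that the search rule fixed this outcome. A site was also found in 7.47% of windows without a planted one. Of simulated comparisons without a difference, 0.1% were separated. Python 3.11, numpy 2.4.6, pandas 2.3.3, scipy 1.17.1 and matplotlib 3.10.9 were used.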

Additional observations from a re-analysis of the deposited data

How the results depend on the processing

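No paired analysis was possible because the list holds no value per library, and for the same reason no library could be left out. With only peaks of the upper 2 score quartiles, 877 core promoter peaks in 871 genes remained, 44.5% of them had an NFI full site, 31.3% of genes had further peaks, 1 motif was higher and 0 lower than in upstream promoter peaks, and 1 was lower than in all core promoters. The calls lost were ETS and the NFI arm against upstream promoter peaks and NFY against all core promoters. The window from -100 to 50 bp also left 1 motif lower than in all core promoters, with NFY lost. The share with a full site was 32.5% in a window from -300 to 200 bp, 22.1% in 100-bp motif windows, 3.35% with no mismatch and 86.0% with up to 2 mismatches, and, in alternatives added after seeing the data, 27% in CpG-rich windows and 41.5% in the others. The difference from upstream promoter peaks no longer excluded 0 with no mismatch (-2.52 points) or with up to 2 (-3.85 points). With start sites within 500 bp, 8.41% of peaks were at bidirectional promoters. The difference of the NFI share from peaks outside promoters kept its sign and excluded 0 in each alternative run. Its size varied, from -28.9 points with 1 peak kept per gene to -12.3 with no mismatch and -5.77 with up to 2 mismatches. The cause of these changes was not tested.

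Differences that were not separated changed sign in 24 cases, with intervals that span 0 in each. Against upstream promoter peaks, these were NRF1 (-0.466), CRE (-0.139), USF (-0.0415), HNF1 (-0.0665) and TATA (0.123) in the upper 2 quartiles, E-box (-0.327) and HNF1 (-0.0596) from -100 to 50 bp, E-box (-1.08) from -300 to 200 bp, USF (-0.0253), GATA (0.148), HNF1 (-0.0911) and TATA (0.225) in 100-bp windows, and USF (-0.0506) and HNF1 (-0.0319) within the deposited peak intervals. Against all core promoters, they were USF (-0.603) and RBPJ (-0.00860) in the upper 2 quartiles, NR5A2 (-0.331) from -100 to 50 bp, USF (-0.275) from -300 to 200 bp, and ETS (-0.733), NRF1 (-0.243), YY1 (0.314), THAP11/ZNF143 (-0.186), USF (-1.25) and RBPJ (-0.252) in 100-bp windows. Of the shares of the 21 gene lists, 11 moved beyond their interval in the upper 2 quartiles, 5 from -100 to 50 bp, 0 from -300 to 200 bp and 0 with recomputed distances. The share over all genes itself fell from 9.00% to 4.15% in the upper 2 quartiles and to 6.14% from -100 to 50 bp. These counts of lists were not adjusted for that fall, so they do not single out the lists.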
